A study of Mus musculus with 6 samples.

Results

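Kinesins are the motor proteins that use ATP to walk along microtubules or to take them apart. The genes described here are the 39 rows, of 18059 in the deposited tables, whose symbol is Kif followed by a number and at most a letter a to c, or Kifc followed by a digit. They were sorted by known role into 12 mitotic kinesins, 15 transport kinesins, 6 kinesins of the cilium and centriole, and 6 that regulate microtubule dynamics or are atypical. Of these, 36 had enough reads to be tested among 13270 genes. The RNA came from cultured primary fibroblasts from the hearts of C57BL/6 mice aged 1 to 2 weeks, grown in 15% serum. In the 3 PDGF-DD libraries the cells had received PDGF-DD, the dimeric form of the growth factor PDGF-D, for 12 hours at a labelled 20 µM, a concentration so high that its unit is in doubt. In the 3 control libraries they had received saline.

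The labels conflict on genotype. By the protocol text every culture came from mice with a global PDGF-D KO, yet the genotype field reads PDGF-D -/- for the PDGF-DD samples and control for the control samples. If the field is right, genotype and treatment cannot be told apart. Pdgfd itself had 69, 72 and 82 reads in PDGF-DD libraries and 118, 114 and 91 in control libraries, but which part of the gene was deleted is not stated, so these reads do not check the genotype. Nothing in the labels says that the libraries of a group were separate cultures or animals, so p-values measure variation among libraries that may be only technical. Depth was even, at 21221114 to 21371829 estimated reads in the PDGF-DD libraries and 21258480 to 21302214 in the control libraries, of which kinesin genes took 34701 to 35435 with PDGF-DD and 36996 to 38739 in control. Fibroblast markers dominated, with Col1a1 at a mean of 6896 TPM (transcript abundance scaled for length to the same sum in each library) in PDGF-DD and 8071 TPM in control libraries. The 8 endothelial markers summed to 162 to 165 TPM in PDGF-DD and 167 to 188 TPM in control libraries, and the 8 macrophage markers to 51.4 to 58.8 TPM with PDGF-DD and 54.3 to 65.9 TPM in control. Control replicate 1 stood apart: its chi-square over genes, divided by the degrees of freedom, was 5.11 against control replicate 2 and 5.70 against control replicate 3, while pairs of PDGF-DD libraries gave 1.90 to 2.74 and the remaining control pair 2.48. Each result that turns on it is also given without it.

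Mitotic kinesins build the spindle, move and align chromosomes and assemble the midzone where the cell divides, and their transcripts accumulate in dividing cells late in the cell cycle. Transport kinesins carry mitochondria, lysosomes, endosomes and vesicles, most of them towards the microtubule plus end and C-terminal motors such as Kifc3 towards the minus end, in dividing and resting cells alike, and kinesin-2 motors build the primary cilium. Mesenchymal cells use PDGF receptors to receive signals for division and migration. A common feature of genes expressed late in the cell cycle is a promoter with a CHR element (cell cycle genes homology region), bound by the MuvB complex, often downstream of CCAAT boxes bound by NF-Y.

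The promoters of the classes held these letters in different numbers. Windows from 250 bases before to 50 bases after the start site were read from the RefSeq table of build GRCm38.p6. It holds 30 of the 39 members. The mitotic kinesin Kif20a and the transport kinesins Kif5a, Kif5b, Kif13b, Kifc2 and Kifc3 had no window. Kif21b, Kif19a and Kif28 of the other classes also had none. For Kif1a, Kif1b, Kif2a and Kif9, which have 2 start sites there, only the first listed was read. The motifs searched on both strands were TTTGAA for the CHR, CCAAT, and for E2F factors the 4 strings TTTGGCGC, TTTCCCGC, TTTGCCGC and TTTCGCGC. No matches of different motifs overlapped in the members. A CHR match was present in 10 of 11 mitotic kinesins with a window, in 0 of 10 transport kinesins, and in 11.9% of the 10570 tested genes with a window. It lay within 25 bases of the start site, a distance set with earlier results known, in 8 of the 11 mitotic kinesins, against 1.45% of tested genes. CCAAT was found in 7 of 11 mitotic and 3 of 10 transport kinesins, against 38.8% of tested genes, and both motifs together in 7 and 0, against 5.16%. An E2F string was found in 2 of 11 mitotic kinesins, Kif15 and Kif18a, against 4.12% of tested genes. The window of Kif18a was the one mitotic window without TTTGAA. The median GC content was 60.7% in mitotic windows, close to the 61% over tested genes, and 68.2% in transport windows, and the part of this higher GC content in the transport counts was not tested. The matches are a description of letters, not of bound factors.

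Windows of 3 mitotic, 1 atypical and 2 transport kinesins are given here from 80 bases before to 20 bases after the start site. These genes passed the test and no annotated exon overlaps the part before the start. Kif2a, which rose, met the same rule, but its window, which holds neither TTTGAA nor CCAAT, is not printed. Capitals mark TTTGAA and CCAAT or their opposite-strand letters. Kif11 is at chr19:37376302-37376401 on the plus strand, Kif18b at chr11:102925105-102925204 on the minus strand, Kif23 at chr9:61946780-61946879 on the minus strand, Kif26b at chr1:178529045-178529144 on the plus strand, Kif1c at chr11:70700468-70700567 on the plus strand and Kif1b at chr4:149307714-149307813 on the minus strand.
Kif11: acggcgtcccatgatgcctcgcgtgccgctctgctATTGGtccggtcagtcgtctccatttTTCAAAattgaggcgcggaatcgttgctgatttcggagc
Kif18b: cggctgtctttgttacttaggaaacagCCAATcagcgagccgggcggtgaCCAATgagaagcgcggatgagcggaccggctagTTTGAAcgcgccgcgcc
Kif23: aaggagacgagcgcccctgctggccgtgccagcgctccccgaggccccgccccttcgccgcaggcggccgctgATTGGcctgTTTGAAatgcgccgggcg
Kif26b: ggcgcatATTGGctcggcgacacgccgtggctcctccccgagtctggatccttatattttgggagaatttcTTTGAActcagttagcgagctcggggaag
Kif1c: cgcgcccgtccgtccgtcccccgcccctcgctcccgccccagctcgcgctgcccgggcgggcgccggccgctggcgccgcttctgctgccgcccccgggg
Kif1b: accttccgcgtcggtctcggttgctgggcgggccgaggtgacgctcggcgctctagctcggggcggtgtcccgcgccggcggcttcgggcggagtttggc
In Kif11 the CHR letters begin 19 bases before the start site and CCAAT 45 bases before it. Kif18b has CCAAT 53 and 30 bases before the start and TTTGAA from base 4 of the transcript, and Kif23 has TTTGAA from base 3. Kif26b, which is not a mitotic kinesin and fell, also carries both, with TTTGAA 9 bases before the start. The windows of Kif1c and Kif1b show neither in this stretch.

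Calls among mitotic and transport kinesins ran in opposite directions. Of the 12 mitotic kinesins 7 rose with PDGF-DD and none fell (quasi-likelihood F test of edgeR, with p adjusted by Benjamini-Hochberg over all tested genes and a threshold of 0.05). Of the 14 tested transport kinesins 7 fell and none rose. Over all tested genes 19.1% were called higher and 17.4% lower, 36.5% in all, so that among mitotic kinesins the share called higher was 58.3%, and among transport kinesins the share called lower was 50%. The median log2 fold change was 0.23 for mitotic and -0.16 for transport kinesins, against -0.01 over all tested genes. All 12 mitotic estimates lay above 0 and 12 of 14 transport estimates lay below it, while 6383 of all 13270 estimates were above 0. The effects were small, with a range of 0.03 to 0.41 in the mitotic class and -0.72 to 0.12 in the transport class. Without control replicate 1 the counts were again 7 higher and 0 lower among mitotic, and 0 higher and 7 lower among transport kinesins. Without control replicate 2, 5 mitotic kinesins were higher and 4 transport kinesins lower. A lower transcript level in a bulk sample cannot be told apart from a smaller share of the cells that express the gene.

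**Figure D1:**
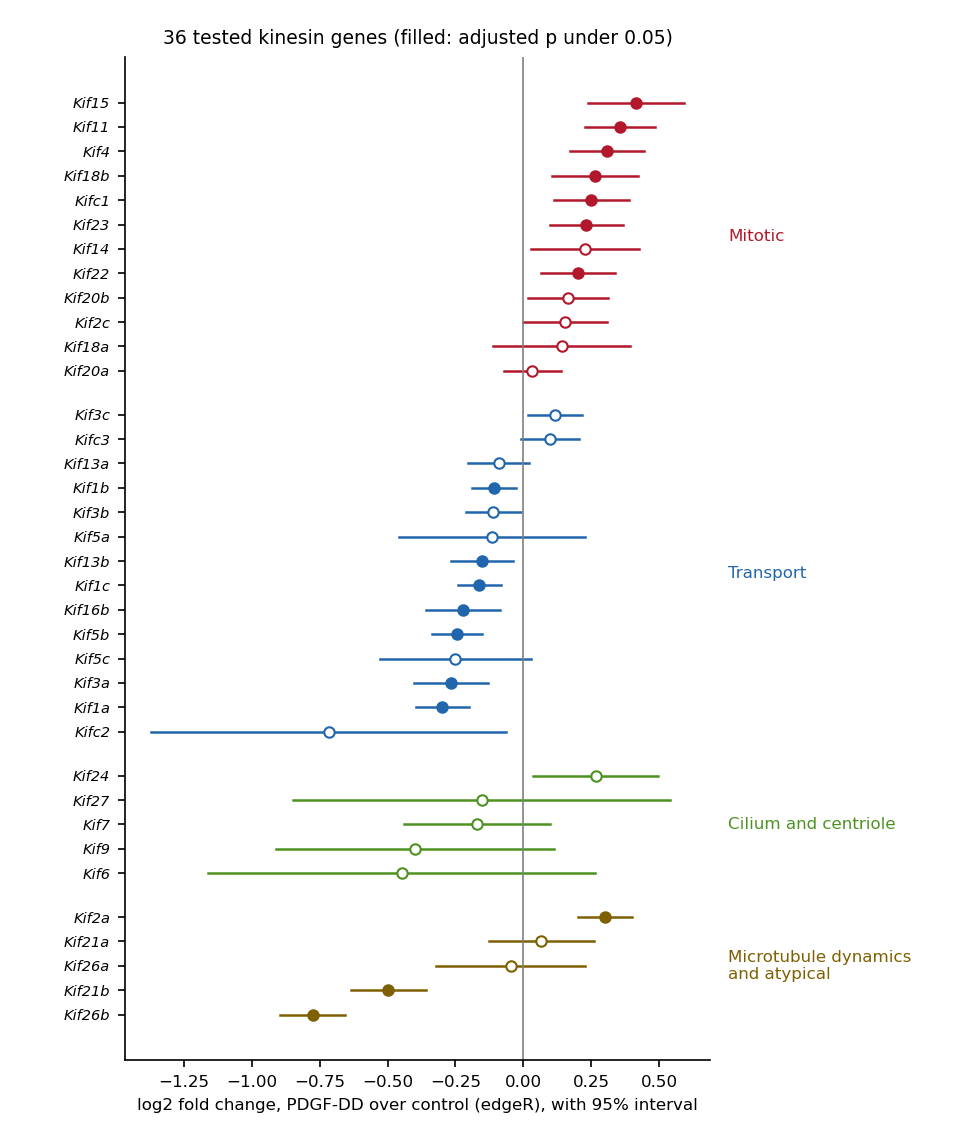
Log2 fold change of each of the 36 tested kinesin genes, PDGF-DD over control, with its 95% interval. Filled points passed an adjusted p of 0.05 and open points did not. The 12 mitotic estimates lie above 0, and 12 of 14 transport estimates lie below it.

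The largest called rises among the mitotic kinesins were those of the spindle motors Kif15 and Kif11. Kif11 (Entrez gene 16551), the tetrameric motor Eg5 that pushes the spindle poles apart, had 16.4, 15.2 and 17.5 TPM in PDGF-DD libraries and 11.9, 12.9 and 13.8 TPM in control libraries. Every PDGF-DD library was above every control library, and the gene rose 1.28-fold (log2 fold change 0.36, standard error 0.06, adjusted p = 5.77e-05 in edgeR). Kif15, which can take over the work of Kif11 in the bipolar spindle, stood at 6.30, 6.72 and 7.29 TPM in PDGF-DD and at 5.42, 5.11 and 4.80 TPM in control libraries. It had the largest estimate of the class, 1.33-fold (log2 fold change 0.41, standard error 0.09, adjusted p = 0.000385 in edgeR), and again no overlap. Kifc1 (Entrez gene 100502766), a minus-end-directed motor that focuses spindle poles, had 28.3, 23.7 and 26.7 TPM with PDGF-DD and 21.5, 22.9 and 22.3 TPM in control. The groups came close, at 23.7 against 22.9 TPM, without overlapping, and the log2 fold change was 0.25 (standard error 0.07, adjusted p = 0.0044 in edgeR). Kifc1 is nearly identical to Kifc5b, which the symbol rule leaves out, so the reads assigned to each are uncertain. With the counts of both summed, an alternative chosen after seeing the data, the log2 fold change was 0.26 (edgeR adjusted p = 0.00145).

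Of the motors that act on chromosomes and on microtubule ends, Kif4, Kif22 and Kif18b rose, and Kif18a and Kif2c did not pass. Kif4, a chromokinesin that shapes chromosomes and limits the length of midzone microtubules, had 12.1, 11.2 and 11.9 TPM in PDGF-DD libraries and 9.65, 9.48 and 9.42 TPM in control libraries. The control values were nearly alike and all under the PDGF-DD values, and the log2 fold change was 0.31 (standard error 0.07, adjusted p = 0.000543 in edgeR). Kif22, the chromokinesin that pushes chromosome arms away from the poles, averaged 24.7 ± 1.11 TPM with PDGF-DD and 21.7 ± 0.49 TPM in control (SD, n = 3 each). Its rise, a log2 fold change of 0.20 (standard error 0.07, adjusted p = 0.0187 in edgeR), was lost in DESeq2 (adjusted p = 0.0897), without PDGF-DD replicate 3 (edgeR adjusted p = 0.09) and without control replicate 2 (edgeR adjusted p = 0.0764). Kif18b, which shortens astral microtubules, rose by a log2 fold change of 0.27 (standard error 0.08, adjusted p = 0.00798 in edgeR), a call lost without control replicate 2 (edgeR adjusted p = 0.0829). Kif18a, which aligns chromosomes at the metaphase plate, stood at 3.88 ± 0.38 TPM in PDGF-DD and 3.54 ± 0.30 TPM in control libraries, and its interval of -0.11 to 0.39 on the log2 scale covers both no change and the rise of Kif11. Kif2c, the centromere depolymerase MCAK, averaged 16.9 ± 1.47 TPM with PDGF-DD and 15.3 ± 0.61 TPM in control, with a log2 fold change of 0.15 (adjusted p = 0.112 in edgeR), and was called higher without PDGF-DD replicate 3 (edgeR adjusted p = 0.0376), while without PDGF-DD replicate 2 the log2 fold change was 0.09 (edgeR adjusted p = 0.4).

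Of the motors of cytokinesis, Kif23 rose and the others did not pass. Kif23, the motor subunit of centralspindlin, averaged 16.5 ± 0.59 TPM in PDGF-DD libraries and 14.2 ± 0.83 TPM in control libraries and rose by a log2 fold change of 0.23 (standard error 0.07, adjusted p = 0.00625 in edgeR). Kif20a, which brings the chromosomal passenger complex to the midzone and is the most abundant mitotic kinesin here, had 39.4, 38.8 and 40.9 TPM with PDGF-DD and 37.0, 37.5 and 42.7 TPM in control. The highest control library exceeded every PDGF-DD library. Its log2 fold change of 0.03 had a 95% interval of -0.07 to 0.14 (edgeR adjusted p = 0.653). Kif14, a partner of citron kinase at the midbody, averaged 2.64 ± 0.19 TPM in PDGF-DD and 2.28 ± 0.19 TPM in control libraries (log2 fold change 0.23, edgeR adjusted p = 0.0696). Kif20b, which acts late in abscission, averaged 8.90 ± 0.93 TPM with PDGF-DD and 7.97 ± 0.15 TPM in control (log2 fold change 0.16, edgeR adjusted p = 0.0759), and was called higher without PDGF-DD replicate 2 (edgeR adjusted p = 0.0136), while without PDGF-DD replicate 3 the log2 fold change was 0.11 (edgeR adjusted p = 0.322). The TPM values of the groups did not overlap in 7 of the 12 mitotic kinesins, all of them higher with PDGF-DD, against 21.3% of tested genes that separated upwards. For a single gene 3 against 3 libraries can give no exact two-sided permutation p below 0.1.

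**Figure D2:**
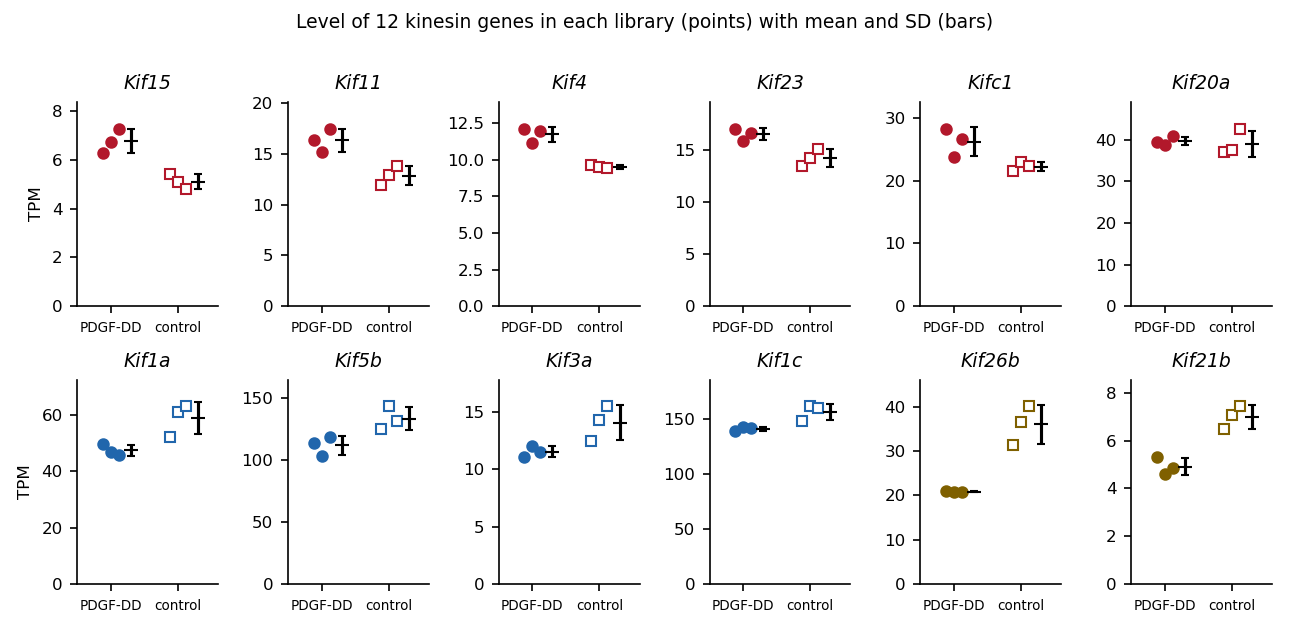
TPM of 12 kinesin genes in each library, with the mean and SD of each group beside the points and every axis starting at 0. The top row holds mitotic kinesins, where Kif15, Kif11 and Kif4 are higher in all PDGF-DD libraries and Kif20a overlaps. In the bottom row Kif1a, Kif5b, Kif3a, Kif1c, Kif26b and Kif21b are lower in all PDGF-DD libraries.

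Transport kinesins were the most abundant of the family. Kif1c, which carries Golgi-derived vesicles and integrins, led the order of levels with 139, 143 and 142 TPM in PDGF-DD libraries and 148, 162 and 160 TPM in control libraries. It fell modestly, by 0.16 on the log2 scale (standard error 0.04, adjusted p = 0.00167 in edgeR), with no overlap between the groups. Kif5b, the ubiquitous heavy chain of conventional kinesin, came next with 114, 103 and 118 TPM in PDGF-DD libraries and 125, 143 and 132 TPM in control libraries. The PDGF-DD libraries were all below the controls, and the log2 fold change was -0.24 (standard error 0.04, adjusted p = 0.000125 in edgeR). Both heavy chain paralogs known mainly from neurons were low, Kif5a at 0.90 ± 0.13 TPM with PDGF-DD and 0.99 ± 0.07 TPM in control, and Kif5c at 1.19 ± 0.08 TPM with PDGF-DD and 1.43 ± 0.16 TPM in control, and neither passed the test (edgeR adjusted p = 0.63 and 0.157).

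Kif1a (Entrez gene 16560), best known as the motor of synaptic vesicle precursors in neurons, followed Kif1c and Kif5b in the order of levels. It had 49.6, 46.9 and 45.8 TPM in PDGF-DD libraries and 52.4, 61.1 and 63.1 TPM in control libraries. The groups did not overlap, and the gene fell 1.23-fold (log2 fold change -0.30, standard error 0.05, adjusted p = 2.42e-05 in edgeR). The 8 neuron markers together reached only 1.22 to 1.58 TPM in PDGF-DD libraries and 1.63 to 1.96 TPM in control libraries, with Snap25 at 0 in all PDGF-DD libraries. The 6 Schwann cell markers summed to 7.43 to 8.66 TPM with PDGF-DD and 8.27 to 9.77 TPM in control. The part of these cells in the Kif1a result was not tested. Kif1b, a relative that carries mitochondria and vesicle precursors, stood at 39.4 ± 0.82 TPM in PDGF-DD and 41.9 ± 2.36 TPM in control libraries. Its log2 fold change of -0.11 passed narrowly (edgeR adjusted p = 0.0354), overlapped in TPM and was lost in 8 of 14 alternatives, among them DESeq2 (adjusted p = 0.082) and the fits without each PDGF-DD library in turn (edgeR adjusted p from 0.0857 to 0.132), with a range over all alternatives of 0.0119 to 0.281.

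Of the kinesin-2 subunits, Kif3a fell and the others did not pass. Kif3a, the shared motor subunit of intraflagellar transport that primary cilia need, had 11.03, 12.04 and 11.53 TPM in PDGF-DD libraries and 12.45, 14.27 and 15.49 TPM in control libraries. All PDGF-DD values lay below the lowest control value, and Kif3a fell by 0.27 on the log2 scale (standard error 0.07, adjusted p = 0.00215 in edgeR). Its partner Kif3b averaged 17.4 ± 0.47 TPM with PDGF-DD and 18.9 ± 0.69 TPM in control (log2 fold change -0.11, edgeR adjusted p = 0.0844), and was called lower under upper-quartile scaling (0.0395) and among genes of at least 5 CPM (0.0459). The alternative partner Kif3c averaged 16.2 ± 0.25 TPM with PDGF-DD and 15.1 ± 0.62 TPM in control, with a positive log2 fold change of 0.12 (edgeR adjusted p = 0.0625) that passed under total count scaling (0.0399). Whether Kif3a and Kif3c differ in response was not tested. Kif17, the homodimeric kinesin-2, was too low to test at 0, 2 and 1 reads in PDGF-DD libraries and 5, 1 and 1 in control libraries.

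Endosomal motors were lower or did not pass. Kif16b, which moves early endosomes, had 418, 406 and 430 reads with PDGF-DD and 476, 500 and 472 in control and fell by 0.22 on the log2 scale (standard error 0.07, adjusted p = 0.00935 in edgeR), a call lost in DESeq2 (adjusted p = 0.0627) and without control replicate 2 (edgeR adjusted p = 0.051). Kif13b averaged 9.25 ± 0.37 TPM with PDGF-DD and 10.3 ± 0.80 TPM in control, and its log2 fold change of -0.15 (edgeR adjusted p = 0.0323) was lost in 7 of 14 alternatives, with adjusted p between 0.0133 and 0.175. Kif13a, which carries recycling endosomes, averaged 12.0 ± 0.46 TPM with PDGF-DD and 12.8 ± 0.86 TPM in control and did not pass (edgeR adjusted p = 0.203). The minus-end motor Kifc3 averaged 28.2 ± 0.84 TPM with PDGF-DD and 26.4 ± 0.96 TPM in control (log2 fold change 0.10, edgeR adjusted p = 0.143). Kifc2 had the most negative estimate of the class, -0.72, from only 21, 20 and 8 reads in PDGF-DD libraries and 29, 33 and 18 in control libraries. It did not pass (edgeR adjusted p = 0.0802, with an interval of -1.37 to -0.06), and was called lower without control replicate 3 (edgeR adjusted p = 0.03), while without PDGF-DD replicate 3 the log2 fold change was -0.38 (edgeR adjusted p = 0.387). Of the 14 tested transport kinesins the TPM values of 7 separated downwards and those of 1, Kif3c, upwards, against 21.7% and 21.3% of tested genes.

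**Figure D3:**
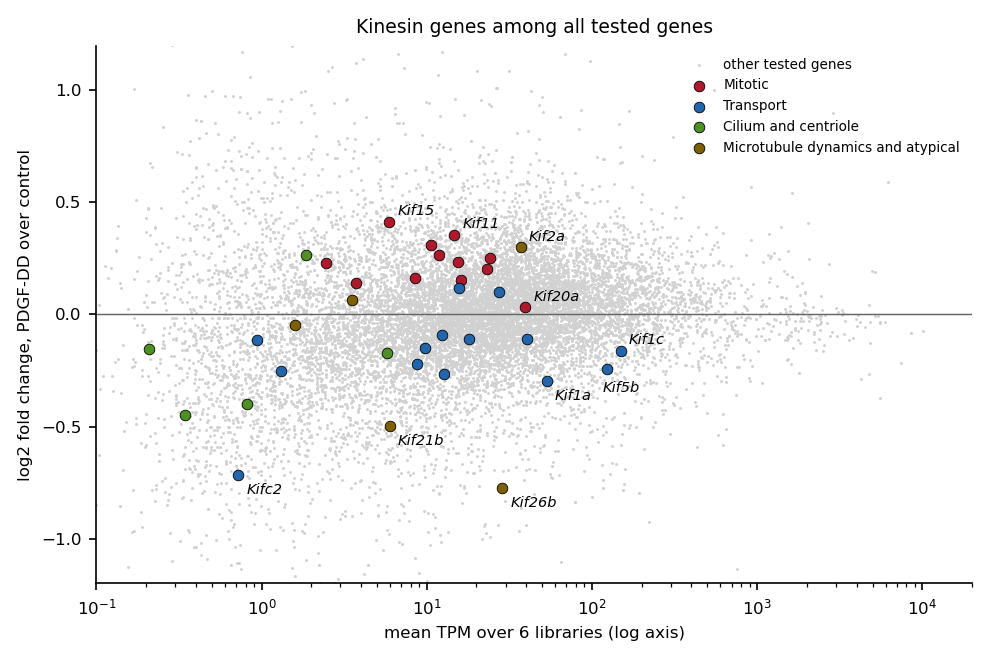
Log2 fold change, PDGF-DD over control, against mean TPM over 6 libraries on a log axis, for all tested genes (grey) and the 4 kinesin classes (coloured). Grey points of 118 genes beyond 1.2 in either direction lie outside the axis. Mitotic kinesins lie above 0 at low and middle levels, and Kif1c, Kif5b and Kif1a lie below 0 at the top of the family's range.

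The largest called changes of the family were those of Kif26b and Kif21b, placed here among the dynamics and atypical kinesins. Kif26b (Entrez gene 269152), an atypical kinesin that acts in Wnt5a and Ror signalling and in mesenchymal cell adhesion, had 21.02, 20.85 and 20.76 TPM in PDGF-DD libraries and 31.39, 36.7 and 40.13 TPM in control libraries. The PDGF-DD libraries were nearly alike and all far below the controls, and the gene fell 1.71-fold (log2 fold change -0.78, standard error 0.06, adjusted p = 5.4e-09 in edgeR). Its log2 fold change stayed between -0.84 and -0.70 in the 14 alternatives. Its paralog Kif26a was low, at 1.56 ± 0.05 TPM with PDGF-DD and 1.63 ± 0.34 TPM in control, and did not pass (edgeR adjusted p = 0.813). Kif21b, which restrains microtubule growth, had 5.30, 4.60 and 4.85 TPM in PDGF-DD libraries and 6.48, 7.06 and 7.44 TPM in control libraries and fell 1.41-fold (log2 fold change -0.50, standard error 0.07, adjusted p = 1.61e-06 in edgeR). The related Kif21a had 4.13, 3.36 and 3.33 TPM with PDGF-DD and 3.27, 3.65 and 3.35 TPM in control, overlapping, with a log2 fold change of 0.07 (adjusted p = 0.62 in edgeR).

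Kif2a, a kinesin-13 depolymerase that works at spindle poles as well as in resting cells, rose. It had 42.1, 38.4 and 42.3 TPM in PDGF-DD libraries and 30.7, 34.4 and 34.5 TPM in control libraries, with no overlap (1.23-fold, log2 fold change 0.30, standard error 0.05, adjusted p = 2.1e-05 in edgeR). Moving Kif2a and Kif24 to the mitotic class and Kif21a and Kif21b to the transport class gave 8 higher and 0 lower mitotic, and 0 higher and 8 lower transport kinesins. Because Kif24 and Kif21a did not pass, the shares called were no larger than before the move. Among all tested genes 19.1% were called higher and 17.4% lower. Kif28 had at most 2 reads in any library and was not tested.

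Kinesins of the cilium and centriole were scarce and none of the 5 tested passed in edgeR, against 36.5% of all tested genes. At an unadjusted p under 0.05 only Kif24 would, and DESeq2 and limma called none. So few genes, several of them with low read counts, cannot show that the class did not respond. Kif7, the regulator of Hedgehog signalling at the tip of the primary cilium, held most of the class total, with 3.97, 5.84 and 6.36 TPM in PDGF-DD libraries and 5.96, 6.33 and 5.91 TPM in control libraries. PDGF-DD replicate 1 was below all other libraries, and the log2 fold change of -0.17 (adjusted p = 0.323 in edgeR) was 0.00112 without it. Kif24, which acts at the centriole to restrain cilium assembly, had 1.84, 1.99 and 2.28 TPM with PDGF-DD and 1.74, 1.68 and 1.55 TPM in control. The groups did not overlap, but the log2 fold change of 0.27 did not pass (edgeR adjusted p = 0.0644) except without control replicate 1 (edgeR adjusted p = 0.0488). Kif9 had 0.69, 0.70 and 0.71 TPM in PDGF-DD libraries and 0.75, 0.87 and 1.19 TPM in control libraries (edgeR adjusted p = 0.224). Kif6, like Kif9 known from motile cilia, had 0.34, 0.24 and 0.28 TPM with PDGF-DD and 0.49, 0.36 and 0.36 TPM in control (edgeR adjusted p = 0.336), resting on 8 to 12 reads in PDGF-DD libraries and 12 to 18 in control libraries. Kif27 rested on 8 to 18 reads in PDGF-DD and 13 to 16 in control libraries (edgeR adjusted p = 0.758). Kif19a, at 0, 0 and 2 reads with PDGF-DD and 4, 2 and 2 in control, was too low to test.

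Summed over members, mitotic kinesins came to 189, 180 and 192 TPM in PDGF-DD libraries and 160, 162 and 172 TPM in control libraries. Transport kinesins came to 448, 436 and 452 TPM with PDGF-DD and 470, 524 and 510 TPM in control. The groups did not overlap in either sum. The mean mitotic sum with PDGF-DD was 114% of that in control and the mean transport sum 88.8%. The transport sum was 2.38 ± 0.03 times the mitotic sum in PDGF-DD libraries and 3.05 ± 0.17 times in control libraries, and mitotic kinesins made up 26.3 ± 0.24% of all kinesin TPM with PDGF-DD and 21.8 ± 0.89% in control (SD, n = 3 each). Kif1c and Kif5b held 57.4% of the transport sum, while Kif20a and Kifc1 held 36.1% of the mitotic sum. Without Kif20a the log2 ratio of the mitotic sums was 0.23 in place of 0.19, and without Kif1c that of the transport sums was -0.18 in place of -0.17.

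**Figure D4:**
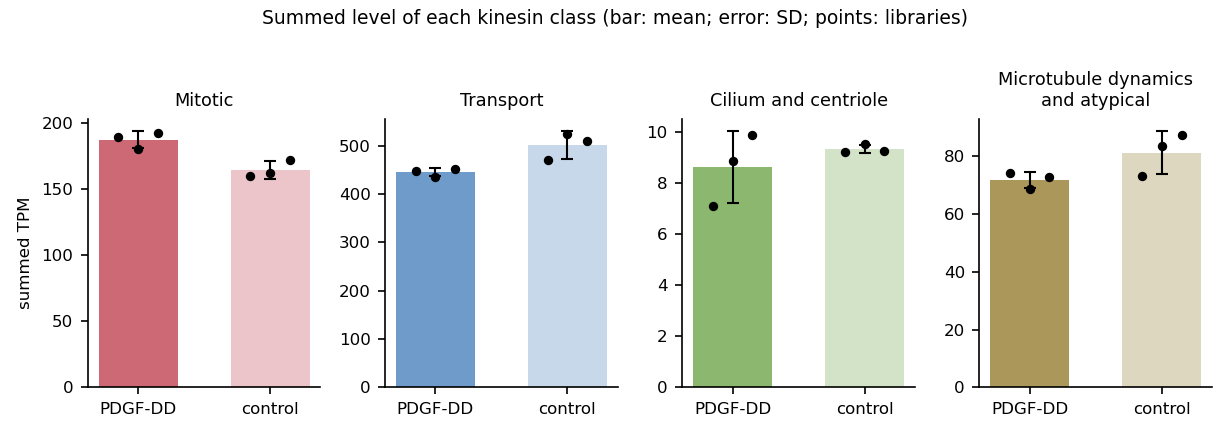
Summed TPM of each kinesin class by library, as bars for group means, error bars for SD (n = 3) and points for libraries, on axes that start at 0. The mitotic sum is higher and the transport sum lower in all PDGF-DD libraries than in any control library.

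Partners of the mitotic kinesins had a similar median. Of 30 genes of the spindle, kinetochore and cytokinesis apparatus 18 rose and none fell, or 60% higher against 19.1% of all tested genes, with a median log2 fold change of 0.21. Ccna2 and Cdk1, the cyclin A2 and kinase that drive entry into mitosis, rose by 0.40 and 0.38 on the log2 scale, and Ncapg, a condensin subunit, by 0.41 (edgeR adjusted p = 6.28e-07, 2.33e-06 and 4.22e-05). The B cyclins, which partner Cdk1 in mitosis, did not pass, with a log2 fold change of 0.06 for Ccnb1 and -0.15 for Ccnb2 (edgeR adjusted p = 0.474 and 0.0784), nor did the mitotic kinase Plk1, at 0.13 (edgeR adjusted p = 0.0742). Cenpe, a kinesin at kinetochores that its symbol keeps out of the family, had 8.85 ± 0.67 TPM in PDGF-DD and 8.63 ± 0.47 TPM in control libraries and did not pass (edgeR adjusted p = 0.602). The DNA replication genes had a larger median than the mitotic kinesins. Of 25 such genes 24 rose and none fell, or 96% higher against the same 19.1%, with a median log2 fold change of 0.52, and the estimates ran from 0.08 to 0.74. Rrm2, a ribonucleotide reductase subunit, rose to 133 ± 6.09 TPM with PDGF-DD, against 82.0 ± 1.45 TPM in control, more than any mitotic kinesin on the log2 scale (0.70, edgeR adjusted p = 5.23e-12). The differences between these lists are described and were not tested.

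Among 20 light chain and cargo adaptor genes of the transport kinesins 1 rose and 4 fell, or 5% and 20%, against 19.1% and 17.4% of all tested genes, so the share that fell was near that over all genes, with a median log2 fold change of -0.07. The genes that fell were Kidins220, a scaffold carried by kinesin-1, Klc4, a kinesin light chain, Arl8a, the GTPase that recruits kinesin-1 to lysosomes, and Trak1, the mitochondrial adaptor, by 0.25, 0.37, 0.17 and 0.17 on the log2 scale (edgeR adjusted p = 3.8e-05, 0.00358, 0.00367 and 0.00431). Fez1, an adaptor of kinesin-1, rose by 0.44 (edgeR adjusted p = 0.00157). Klc1, the most abundant light chain in the list, stood at 163 TPM with PDGF-DD and 167 TPM in control on average and did not pass. Of 23 tested genes of dynein, dynactin and their adaptors, which move cargo to the minus end, 2 rose and 4 fell, or 8.7% and 17.4%, and the share that fell was the same as over all tested genes. The falls were Dctn1, Dctn2, Dctn6 and Dync1h1, the dynein heavy chain, by 0.11 to 0.18 on the log2 scale. The rises were Spdl1, the kinetochore adaptor of dynein, by 0.56 (edgeR adjusted p = 7.52e-05), and Dync1li1 by 0.11 (edgeR adjusted p = 0.049).

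The tracks themselves changed unevenly. Of 22 tubulins and microtubule-binding proteins 10 rose and 5 fell, or 45.5% and 22.7% against 19.1% and 17.4% of all tested genes, with a median log2 fold change of -0.002. Tubb6 rose to 495 ± 21.2 TPM with PDGF-DD, against 380 ± 18.3 TPM in control (log2 fold change 0.39, edgeR adjusted p = 4.12e-08), and Tubb5 and Tubb4b rose by 0.27 and 0.26. Map1a, Clasp2, Tuba1a, Tubb3 and Map1b fell, by 0.13 to 0.32 on the log2 scale. Reads of the tubulin paralogs may be shared between near-identical copies, so these values are uncertain.

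**Figure D5:**
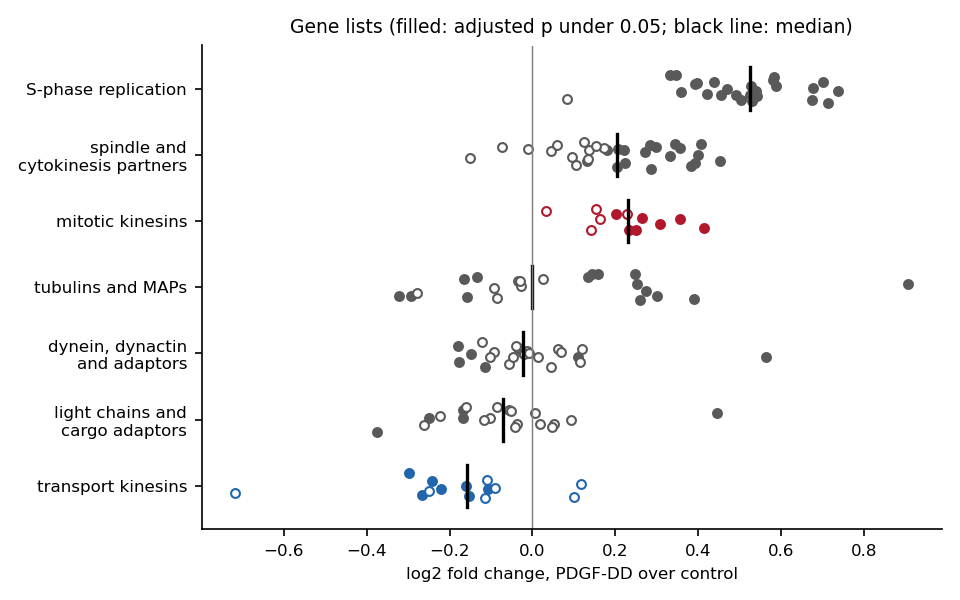
Log2 fold change, PDGF-DD over control, of each tested gene in 7 lists, filled where the adjusted p was under 0.05, with the list median as a black line. The median is 0.52 for replication genes, 0.21 for spindle and cytokinesis partners, 0.23 for mitotic kinesins and -0.16 for transport kinesins.

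Markers of some other cell types also moved, beside 17.4% called lower and 19.1% called higher over all tested genes. The 9 smooth muscle and pericyte markers, several of which activated fibroblasts also express, summed to 7220 to 7481 TPM in PDGF-DD libraries and 9064 to 9200 TPM in control libraries, and 5 of the 8 tested were lower and 1 higher. The 10 cardiomyocyte markers summed to 228 to 257 TPM with PDGF-DD and 319 to 344 TPM in control, nearly all of it Tnnt2, and 3 of 7 tested were lower, with Tnnt2 at a mean of 228 TPM with PDGF-DD and 314 TPM in control. The fibroblast markers also moved, with 7 of 10 lower and 2 higher. Epicardial markers summed to 80.04 to 81.87 TPM with PDGF-DD and 78.04 to 89.76 TPM in control, with 1 of 7 lower. This share of 14.3% and the 12.5% of endothelial markers (1 of 8) were below that over all tested genes. None of the 8 macrophage markers and 4 tested Schwann cell markers passed. The part of these shifts in the kinesin results was not tested.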

How the data were processed

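Total RNA was made into 6 messenger RNA libraries. The submitters' processing notes list, with no roles, RSEM (1.2.12), HISAT2 (2.0.4), DESeq2 (1.4.5), Bowtie2 (2.2.5) and build mm9. No annotation or strand setting is named in the sources used, and reads of overlapping genes or near-identical copies may be shared. The authors deposited estimated counts without normalization, per the file headers, of which 31.9% to 32.7% are not whole. The deposited TPM and FPKM values were scaled by the authors for length and depth, per the file headers.

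After rounding and filterByExpr, 13270 genes were tested with edgeR 4.0.16 in R 4.3.3 (TMM factors 0.995 to 1.01, robust quasi-likelihood fit, two-sided). The common biological coefficient of variation was 3.96%. Each standard error is the log2 fold change over the square root of F, and intervals are at 95%. Levels are TPM. Alternatives used other scalings and filters, DESeq2 1.42.0, limma 3.58.1 (log2 of TPM plus a pseudocount of 1, mean TPM of at least 1), a replicate block and each library left out.

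The members, classes, lists and motifs were chosen with earlier results of these data known. Values per library are given for called members with an absolute log2 fold change of at least 0.3, the 4 lowest p-values and the 2 highest levels of each class, and by mean or reads for the rest. From a partner list the 4 called genes of lowest p, the 2 of highest level and any called against the majority may be named. Trak1, Dync1h1, Cenpe, Ccnb1, Ccnb2 and Plk1 were named outside this rule, after their values were seen. Of the 30 promoter windows, 23 had first transcribed bases that match a GENCODE transcript of the gene. List genes without a row in the tables were not analysed here.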

Additional observations from a re-analysis of the deposited data

How the results depend on the processing

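Of the 17 called kinesins, 17 were also called with DESeq2 size factors in edgeR, 17 under upper-quartile scaling, 16 under total count scaling, 17 without the low-count filter, 17 among genes of at least 5 CPM, 13 in DESeq2, 15 in limma on TPM and 12 to 17 when a library was left out. Transport kinesins called lower numbered 4 in DESeq2 and 4 to 7 with a library left out, and 1, Kif3c, was higher under total count scaling. The number of all genes called lower changed too, from 2310 of 13270 in the main fit to 1611 of 12764 in DESeq2. It was 1729 to 2374 with a library left out. With a library left out 0 to 1 kinesin of the cilium and centriole was called higher. Libraries of the same replicate number showed no pairing (correlations of deviations -0.07, -0.09 and -0.03), but 3 libraries per group cannot exclude it. With the number as a replicate block 7 mitotic kinesins were higher and 6 transport kinesins lower, Kifc2 was called lower (edgeR adjusted p = 0.0486), Kif13b and Kif1b were no longer called, and 1 dynein list gene was higher. The cause of these shifts was not tested, except that filters change which genes are tested.

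The mitotic median log2 fold change was 0.19 in limma and 0.21 to 0.26 with a library left out. The cilium and centriole median was -0.28 without the filter, 0.034 at 5 CPM, 0.013 in limma and -0.44 to -0.17 with a library left out. The dynamics and atypical median was -0.27 without the filter, -0.23 at 5 CPM and -0.19 to 0.038 with a library left out. For cargo partners the median was -0.093 to -0.038 with a library left out. For dynein genes it was -0.044 under upper-quartile scaling, -0.013 under total count scaling, -0.038 at 5 CPM and -0.037 to 0.0031 with a library left out, while 1 was called higher under upper-quartile scaling, at 5 CPM, in DESeq2 and in limma, 3 under total count scaling and 1 to 2 with a library left out, when 2 to 5 were lower. For spindle partners it was 0.17 to 0.25 with a library left out, and 1 was called lower under upper-quartile scaling and at 5 CPM. For replication genes it was 0.49 in limma and 0.49 to 0.54 with a library left out, and for tubulins -0.022 under upper-quartile scaling and -0.0071 to 0.041 with a library left out.

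Estimates of 5 uncalled kinesins changed sign when a library was left out. The ranges were -0.0058 to 0.088 for Kif20a, -0.028 to 0.14 for Kif21a, -0.19 to 0.038 for Kif26a, -0.45 to 0.11 for Kif27 and -0.29 to 0.0011 for Kif7. Depth limits Kifc2, Kif6, Kif9 and Kif27, which rest on 8 to 33 reads per library.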

Other observations

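Kifc5b, a near copy of Kifc1 that the symbol rule leaves out, had 134, 132 and 113 reads in PDGF-DD libraries and 116, 93 and 92 in control libraries. Its level averaged 5.19 ± 0.47 TPM with PDGF-DD and 4.18 ± 0.44 TPM in control (SD, n = 3 each), with a log2 fold change of 0.32 (standard error 0.12, adjusted p = 0.0479 in edgeR).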
